A study of Mus musculus with 3 samples.

Results

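Noncoding snoRNA host genes are transcribed as long RNAs whose exons are not known to code for a conserved protein and whose introns carry small nucleolar RNAs (snoRNAs). The 10 genes described here are Gas5, Snhg1, Snhg3, Snhg5, Snhg6, Snhg8, Snhg12, Snhg15, Zfas1 and Epb41l4aos, picked by a list of symbols out of 55536 annotated mouse genes. They were measured in 3 libraries of 1 group: chromatin-fraction RNA from bone marrow-derived macrophages of C57BL/6J mice, given lipid A at 100 ng/ml and collected after 20 min. Lipid A is the membrane anchor of bacterial lipopolysaccharide and activates Toll-like receptor 4. All libraries were stimulated, so no effect of lipid A could be measured. Replicate 1 was made from 1000 ng of RNA, replicate 2 from 250 ng and replicate 3 from 500 ng. The labels give the same donor entry for all, without saying that the cultures came from separate animals, so the spread between libraries may be technical. Sex and age are given as not collected.

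After splicing, the intron of such a gene is opened and trimmed down to the snoRNA, which its bound proteins protect. Box C/D snoRNAs guide 2′-O-methylation of ribosomal RNA, and box H/ACA snoRNAs guide pseudouridylation. The spliced exons of several hosts, Gas5 among them, are exported and degraded during translation by nonsense-mediated decay. Hosts of this kind often start with a run of pyrimidines, the 5′ TOP sequence that also marks ribosomal protein mRNAs. RNA bound to chromatin is enriched in transcripts that are still being made or spliced.

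The snoRNAs on which the counts below turn are shown first. In the sequences with box C or box D, the capitals mark those boxes, TGATGA and CTGA, and in the H/ACA sequences they mark the ACA triplet that lies 3 bases from the 3′ end. Sequences are GENCODE M21 transcript sequences on GRCm38, written 5′ to 3′ with T for U. Snord22, from an intron of Snhg1 at chr19:8725866-8725991 (+), is the only box C/D snoRNA of these hosts with a measured level in the gene tables. Snora73a, at chr4:132352775-132352979 (-), and Snora73b, at chr4:132352322-132352526 (-), lie in introns of Snhg3 and gave the highest counts. Snora9, at chr11:6528033-6528165 (-), is the snoRNA of Snhg15. Gm22357, at chr1:161036057-161036139 (+), and Snord47, at chr1:161038082-161038158 (+), are the Gas5 snoRNAs with the most counts.
Snord22: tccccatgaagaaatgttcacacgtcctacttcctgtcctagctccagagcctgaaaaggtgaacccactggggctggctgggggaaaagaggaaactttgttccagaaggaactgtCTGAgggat
Snora73a: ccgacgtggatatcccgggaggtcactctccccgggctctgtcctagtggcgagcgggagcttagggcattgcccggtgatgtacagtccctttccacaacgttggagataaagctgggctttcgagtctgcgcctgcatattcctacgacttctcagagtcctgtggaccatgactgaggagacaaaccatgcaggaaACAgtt
Snora73b: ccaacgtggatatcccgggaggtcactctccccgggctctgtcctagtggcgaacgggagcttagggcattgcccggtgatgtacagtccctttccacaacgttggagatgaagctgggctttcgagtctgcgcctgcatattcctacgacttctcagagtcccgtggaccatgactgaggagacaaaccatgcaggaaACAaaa
Snora9: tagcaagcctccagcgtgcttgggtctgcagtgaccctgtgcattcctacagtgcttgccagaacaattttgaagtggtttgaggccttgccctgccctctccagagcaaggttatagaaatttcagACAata
Gm22357: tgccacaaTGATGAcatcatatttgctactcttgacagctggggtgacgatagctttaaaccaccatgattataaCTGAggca
Snord47: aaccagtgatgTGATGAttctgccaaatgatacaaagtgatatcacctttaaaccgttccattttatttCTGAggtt

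The libraries held 16317439, 16245280 and 12439931 expected counts in replicates 1, 2 and 3. Over the counts assigned to annotated genes, the 10 hosts had 272, 237 and 249 CPM, that is, counts scaled to a fixed library sum. Small RNAs weighed heavily on TPM, the scale of the levels, in which counts are divided by effective length and scaled to a fixed library sum. Annotated snoRNA genes took 55.7%, 46.4% and 40.4% of all TPM in replicates 1, 2 and 3, but 0.907%, 0.397% and 0.286% of the counts. The difference between length and effective length of long transcripts, which follows the fragment length, was 190 bases in replicate 1, against 247 in replicate 2 and 246.5 in replicate 3. Of 10 macrophage markers, 10 reached 1 TPM in every library, with Cd14 the highest at 191 ± 144 TPM and Fcgr1 the lowest at 13.3 ± 4.59 TPM (SD, n = 3). The markers of T and NK cells, B cells, neutrophils, mast cells, erythroid cells and fibroblasts summed, for each of these lists, to at most 0.45 TPM in any library in the gene tables. The kallisto tables are a second set in the column layout of kallisto. In them Cd3d, a T cell marker listed at 0 in the gene tables, had 7.94, 13.1 and 18.4 TPM. The other markers of the T and NK cell list were at most 0.13 TPM there, and the other 5 lists summed to at most 3.16 TPM. Dendritic cell markers summed to 0.70 to 1.34 TPM in the gene tables and 2.94 to 5.76 TPM in the kallisto tables. The endothelial markers summed to 1.51 to 3.04 TPM, nearly all from Kdr, at 2.27 ± 0.77 TPM, with Cdh5 at 0.01 ± 0.01 TPM.

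Gas5 (growth arrest-specific 5, chr1:161034422-161038539, + strand), a host of box C/D snoRNAs, stood above the other hosts. It had 90.1, 107 and 134 TPM in replicates 1, 2 and 3, with 2187, 1960 and 1533 expected counts, and averaged 110 ± 22.2 TPM (SD, n = 3). It held 49.9% of the summed mean TPM of the 10 hosts and ranked 11 of 6644 lincRNA and processed_transcript genes. Its level exceeded that of Snhg1 in 3 of 3 libraries, by a mean log2 difference of 1.72 ± 0.29 (SD, n = 3). In bulk samples such as these, fewer cells that make an RNA and less RNA in each cell cannot be told apart.

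Snhg1 (chr19:8723475-8726443, + strand), which carries Snord22 and 7 other annotated snoRNAs, had 24.4, 40.8 and 36.0 TPM, with a mean of 33.7 ± 8.41 TPM. Replicate 2 was the highest library and replicate 1 the lowest. Zfas1 (chr2:167062934-167065862, + strand), named for its position antisense to the start of Znfx1, had 22.6, 15.2 and 23.0 TPM and a mean of 20.3 ± 4.39 TPM. Here replicate 2 was the lowest library. Snhg15 (chr11:6525591-6528760, - strand), the host of Snora9, had 13.7, 14.8 and 24.8 TPM and a mean of 17.8 ± 6.12 TPM. Snhg8 (chr3:123507552-123508404, - strand), the shortest of the 10 genes and the host of Snora24, had 9.20, 16.5 and 21.4 TPM and a mean of 15.7 ± 6.16 TPM. In both of these, replicate 3 was the highest library.

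Lower down stood Snhg12 and Snhg5. Snhg12 (chr4:132308623-132311024, + strand), which carries both kinds of snoRNA, had 5.79, 6.31 and 10.5 TPM and a mean of 7.53 ± 2.58 TPM. Snhg5 (chr9:88521050-88522929, - strand), the host of Snord50a and Snord50b, had 5.33, 6.54 and 9.43 TPM and a mean of 7.10 ± 2.11 TPM. These levels were within each other's spread, with a mean log2 difference of 0.07 ± 0.11.

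At the low end, Snhg6 (chr1:9941959-9944118, - strand), the host of Snord87, had 2.95, 2.16 and 6.46 TPM and a mean of 3.86 ± 2.29 TPM. Snhg3 (chr4:132348014-132353686, - strand) had 1.79, 3.92 and 2.59 TPM and a mean of 2.77 ± 1.08 TPM, from only 19.4, 23.3 and 5.27 expected counts. Epb41l4aos (chr18:33794892-33795986, + strand) had 0.15, 2.25 and 4.58 TPM and a mean of 2.33 ± 2.22 TPM. These Epb41l4aos values came from 1, 9 and 12 expected counts, so its order against Snhg3 was not set at this depth. The kallisto tables gave Epb41l4aos 2.39, 3.96 and 5.59 TPM.

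**Figure D1:**
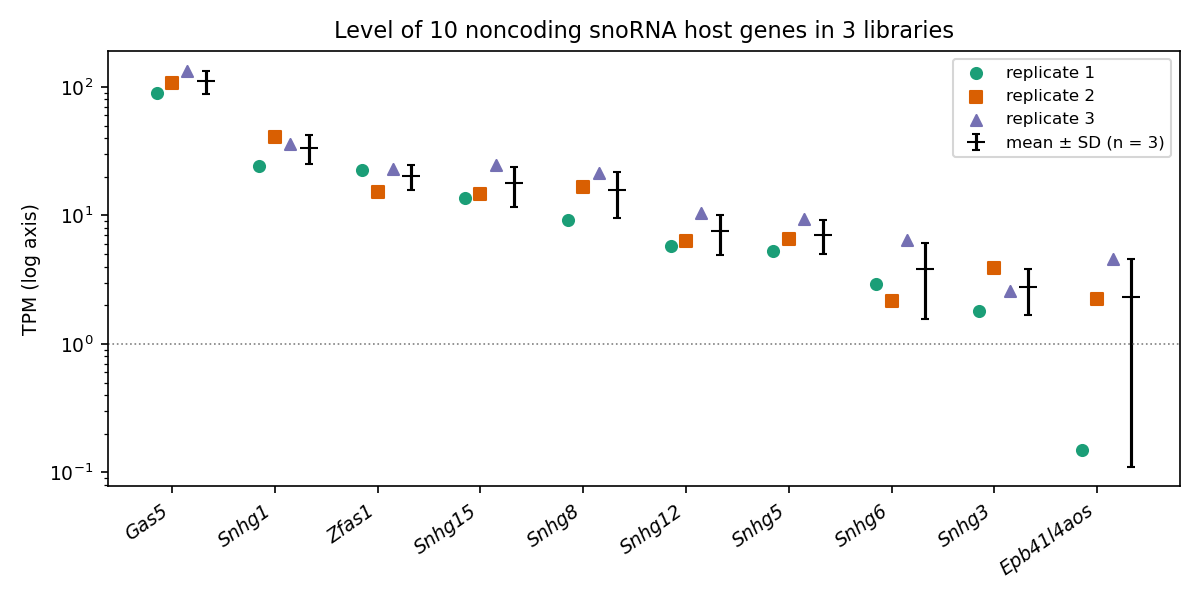
TPM of each host gene (log axis) in the 3 libraries, with the mean and SD beside the points and a dotted line at 1 TPM. Gas5 lies above all other hosts in every library, and Epb41l4aos in replicate 1 is the only point under the dotted line.

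Neighbours in the order were called apart when the upper one was higher in 3 of 3 libraries and the mean log2 difference exceeded 2 SD. Of the 9 neighbouring pairs, 2 met this: Gas5 over Snhg1, and Snhg8 over Snhg12, by 1.02 ± 0.36. Snhg1 was above Zfas1 in 3 of 3 libraries, but the difference of 0.72 ± 0.66 was under 2 SD. Snhg5 was likewise above Snhg6 in 3 of 3 libraries, by 0.98 ± 0.52. The other 5 pairs changed order between libraries. An exact two-sided sign-flip test over 3 libraries cannot give a p below 0.25, so none is reported for these pairs.

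Replicate 3 was the highest library for 8 of the 10 hosts and replicate 2 for the other 2, Snhg1 and Snhg3. Replicate 1 was the lowest for 8. Replicate 3 was also the library with the smallest snoRNA share of TPM and replicate 1 the one with the largest. With TPM rescaled over protein-coding and long noncoding genes only, replicate 3 was highest for 6 hosts, replicate 1 for 2 (Gas5 and Zfas1) and replicate 2 for 2. On that scale Gas5 had 407, 357 and 403 TPM, and the lowest library was replicate 2 for 6 hosts, replicate 1 for 2 and replicate 3 for 2. In the kallisto tables replicate 2 was the lowest for 6 hosts and replicate 1 for 4.

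Of the 10 hosts, 9 reached 1 TPM in every library. Among all genes, 40.6% of protein-coding genes, 3.88% of lincRNA genes and 19.2% of processed_transcript genes did so. The median over the hosts of log2(mean TPM + 0.1) was 3.46, against -0.93 over protein-coding genes and -3.32 over lincRNA genes, whose median gene was listed at 0. The median level of the hosts was 7.495, 10.7 and 16.0 TPM in replicates 1, 2 and 3.

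Other gene groups of the pathway give the surroundings of these levels. Of 12 further noncoding snoRNA hosts, 9 were matched by symbol in the annotation and 4 reached 1 TPM in every library. Snhg20 had the highest mean of them in the gene tables, at 10.6 ± 5.38 TPM, and Snhg18 was listed at 0 in every library. Snhg14, at 10.2 ± 6.60 TPM, was within that spread. In the kallisto tables Snhg14 averaged 17.0 TPM, against 8.37 TPM for Snhg20. Dancr, Snhg11 and Snhg9 did not reach 1 TPM in the gene tables but did so in every library in the kallisto tables. All 31 protein-coding snoRNA hosts, many of them ribosomal protein and translation factor genes, reached 1 TPM in every library, with library medians of 15.9, 25.0 and 33.7 TPM. The highest by its mean in the gene tables was Eif4a2, an RNA helicase of translation initiation, at 260 ± 67.6 TPM. In replicate 2 Eif4a1, at 270 TPM, and Snx5, at 259 TPM, were above its 251 TPM. In the kallisto tables Snx5 averaged 466.5 TPM, against 258 TPM for Eif4a2.

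Of the 8 core proteins of box C/D and H/ACA particles, 7 reached 1 TPM in every library. Nop56, a box C/D core protein whose own gene hosts snoRNAs, was the highest at 25.3 ± 8.67 TPM, and Nop10, an H/ACA core protein, the lowest at 0.36 ± 0.12 TPM. Of 9 assembly factors, 7 reached 1 TPM in every library. Pih1d1 was the highest of the 9, at 6.97 ± 1.85 TPM, and Naf1, an H/ACA assembly factor that reached 1 TPM in replicate 3 only, the lowest at 1.10 ± 0.66 TPM. Among 6 genes for intron debranching and RNA trimming, 5 did so. The nuclear 5′ to 3′ exonuclease gene Xrn2 was the highest of these, at 44.6 ± 8.34 TPM, and Dbr1, which encodes the enzyme that opens the intron lariat, the lowest at 0.97 ± 0.22 TPM. In the kallisto tables Naf1 and Dbr1 were above 1 TPM in every library, with means of 1.82 and 2.19 TPM, while Nop10 averaged 0.38 TPM.

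Of 16 nonsense-mediated decay genes, 15 reached 1 TPM in every library. Smg1, the kinase of the pathway, led with 113 ± 22.6 TPM, and Smg8, a subunit of the SMG1 complex, was the lowest at 1.09 ± 0.56 TPM. Of 5 genes of 5′ TOP translation control, 4 did so. Rptor, a subunit of mTORC1, was the highest at 32.8 ± 7.34 TPM. Eif4ebp1, a translation repressor, was the 1 gene that did not reach 1 TPM in the gene tables, at 0.52 ± 0.26 TPM. In the kallisto tables Eif4ebp1 had 9.60, 8.83 and 16.2 TPM in replicates 1, 2 and 3, so its level depended on the table used.

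Noncoding genes with the level pattern closest to Gas5 over the 3 libraries, by the root mean square difference of log2(TPM + 0.1), were Firre, Gm36161 and Dleu2. Firre differed by 0.26 and had 79.0, 142 and 140 TPM. Gm36161 differed by 0.45 and Dleu2 by 0.48. Closest to the lowest host, Epb41l4aos, were AC154232.1, Rapgef3os1 and AC139027.2, with differences of 0.63, 0.80 and 0.84. Close levels in 3 libraries describe these genes and nothing more.

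Most of the signal of the hosts was assigned to isoforms that keep a snoRNA in an exon, that is, to annotated transcripts in which the snoRNA's intron is not removed. Of 83 annotated isoforms of the 10 genes, 42 hold at least 1 whole annotated snoRNA in an exon. They took 69.5%, 67.5% and 69.1% of the summed host TPM in replicates 1, 2 and 3, a mean of 68.7 ± 1.07% (SD, n = 3). By expected counts, which long isoforms gather more of, the share was 85.2 ± 0.62%. These isoforms overlap each other, so their shares rest on how the authors' tool split shared reads, and a read from an unfinished or unspliced transcript can be assigned to such an isoform. In addition, 24 of the hosted snoRNAs had an effective length of 0 and no counts of their own in the gene tables. Whether reads of these snoRNAs were assigned to such isoforms was not tested. Snord22, Snora9, Snora24, Snora44 and Snora61, which have an effective length above 0, also lie whole in host isoforms. Their reads can be split between snoRNA and host. The levels and shares of Snhg1, Snhg15, Snhg8 and Snhg12 rest on that split too.

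Gas5 gave 75.6 ± 0.90% of its TPM to its 16 snoRNA-holding isoforms out of 25. The highest by its mean was Gas5-218, a retained-intron transcript of 4 exons and 2556 bases that keeps 6 snoRNAs. It had 12.7, 18.3 and 22.2 TPM, against 13.5, 13.0 and 15.7 TPM for Gas5-222, which was above it in replicate 1. The 12-exon Gas5-224, which holds none of the snoRNAs, had 3.90, 3.46 and 13.9 TPM, or 5.99 ± 3.86% of the gene. It was highest in replicate 3, and the share of isoforms annotated as retained introns was lowest there, at 88.9%, against 94.4% in replicate 1 and 95.04% in replicate 2.

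Snhg1 gave 76.7 ± 1.54% to snoRNA-holding isoforms. Its leading transcript was Snhg1-215, of 2 exons and 2728 bases with 7 snoRNAs, at 6.79, 10.9 and 12.03 TPM. The 10-exon Snhg1-211, which holds none, had 2.97, 3.75 and 1.87 TPM. Zfas1 gave 75.6 ± 10.2%, with the highest mean in the 2302-base Zfas1-204, which had 7.75, 4.01 and 8.57 TPM, against 8.13, 3.25 and 7.63 TPM for Zfas1-202. Snhg8 gave 78.4 ± 5.99%, all of it in the single-exon Snhg8-202, against 15.8 ± 6.67% for the 3-exon Snhg8-201. In Snhg12 the share was 89.3 ± 11.5%, with 100%, 90.7% and 77.2% in replicates 1, 2 and 3.

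The remaining hosts differed from these. Snhg5 gave 48.3 ± 6.58% of its TPM to isoforms with a whole snoRNA. Snhg15 gave 26.9 ± 6.72%, and its main isoform, Snhg15-202, held no snoRNA and took 62.1 ± 2.56%. None of the isoforms of Snhg6, Snhg3 and Epb41l4aos holds a whole snoRNA in an exon, so their share is 0 by annotation. In Snhg3, the isoform Snhg3-202 overlaps a snoRNA in part and took 100%, 76.5% and 18.9% in the 3 libraries. These last shares rest on few counts.

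**Figure D2:**
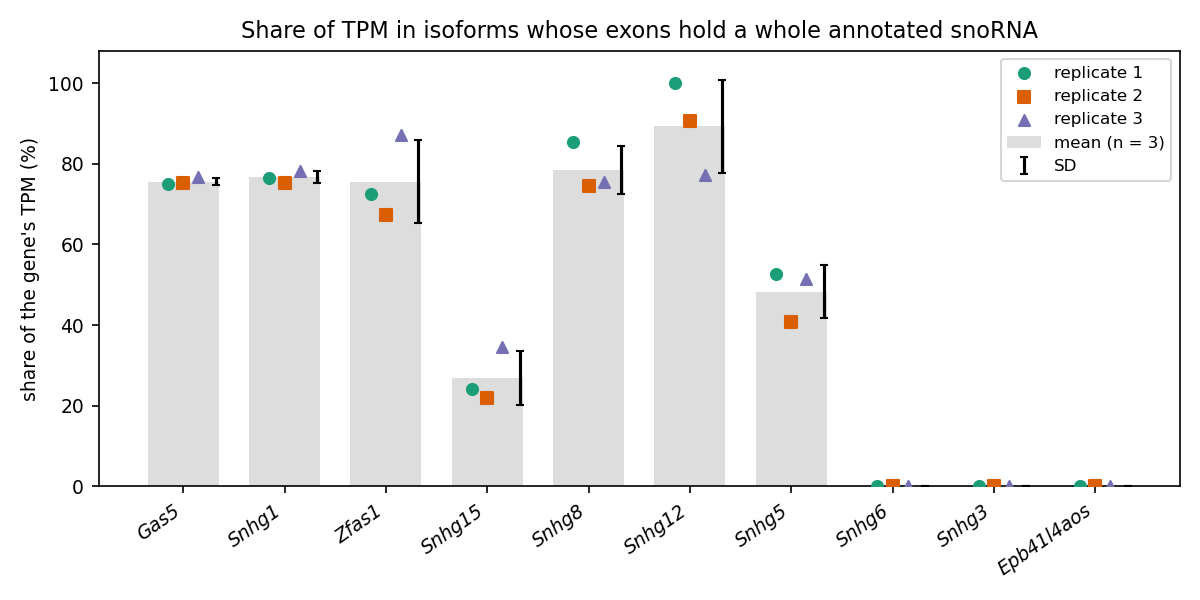
Share of each host gene's TPM (%) in isoforms whose exons hold a whole annotated snoRNA; bars are means, error bars SD (n = 3) and points the libraries. Gas5, Snhg1, Zfas1, Snhg8 and Snhg12 average 75.6% to 89.3%, Snhg15 averages 26.9%, and 3 genes have no such isoform.

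The annotation places 34 snoRNA genes, at 32 separate positions, within the 10 hosts on the same strand. Gas5 holds 10, Snhg1 8, Snhg12 5, Zfas1 3, Snhg3 and Snhg5 2 each, and the other 4 hosts 1 each. Of the 34, 21 hold TGATGA starting in the first 20 bases and CTGA starting in the last 20, read on the snoRNA's own strand, with no overlap between them. One of these, an entry of Gas5 named Mir5117, also has ACA 3 bases from its 3′ end. In 8 snoRNAs without both boxes, ACA lies at that place. A further 4 hold such a CTGA with neither TGATGA nor ACA at these places, among them Snord22, and Snora44 holds none of these. Among all 1507 annotated snoRNA genes, 20.6% hold both boxes by this rule, 18.05% the ACA triplet without both boxes and 13.3% CTGA alone.

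Measured in the shortest annotated intron that holds each one, the 21 with both boxes ended 65 to 314 bases before the next exon, with a median of 72 bases. Of these, 17 lay within 65 to 80 bases. The 8 with the ACA triplet and not both boxes had a median of 84 bases. Snora9 in Snhg15 was the farthest, at 1595 bases.

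**Figure D3:**
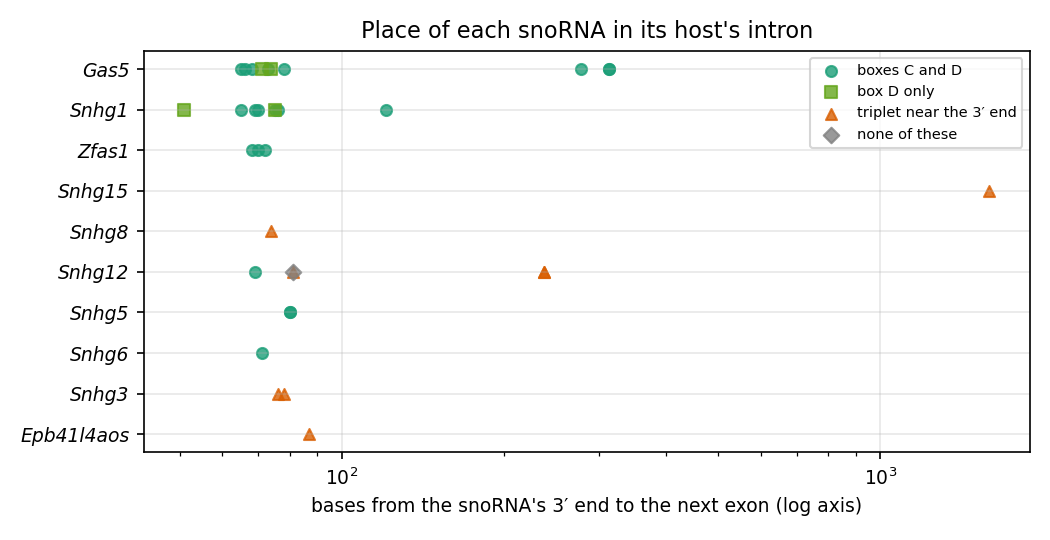
Distance in bases from each snoRNA's 3′ end to the next exon (log axis) by host gene, with symbols for the sequence boxes found. Most points lie near 70 to 80 bases, and the Snhg15 snoRNA stands at 1595 bases.

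Length decided which snoRNAs had a value in the gene tables. The 24 hosted snoRNAs of 60 to 93 bases had an effective length of 0 in every library and were listed at 0, whatever their abundance. This covers all snoRNAs of Gas5, Zfas1, Snhg5 and Snhg6. The 10 of 126 to 205 bases had an effective length above 0. The labels give a size range of 250 to 400 for each library, longer than any of these snoRNAs. The difference between length and effective length of long transcripts, at 190, 247 and 246.5 bases in replicates 1, 2 and 3, was below that range. In the kallisto tables, 8 of the 24 had more than 3 counts in every library, 13 had at most 3 in every library, and 3 lay between.

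**Figure D4:**
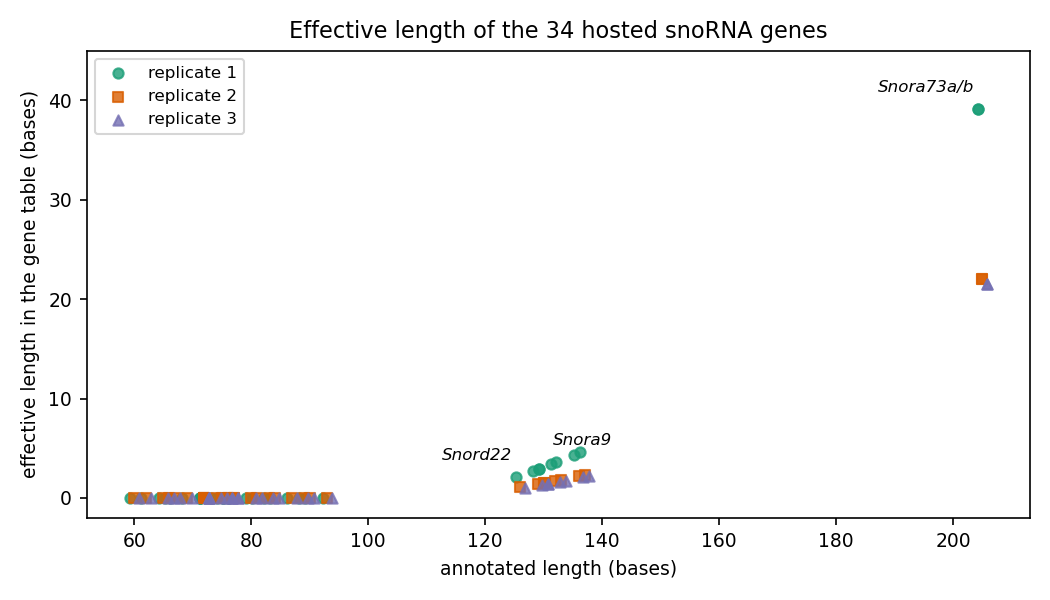
Effective length in the gene tables against annotated length, in bases, for the 34 hosted snoRNA genes in each library, with the libraries set slightly apart along the axis. The 24 shorter ones lie at 0, Snord22 has 2.15, 1.08 and 1.01 bases, and Snora73a and Snora73b have 39.1, 22.1 and 21.5 bases.

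Snord22, with 126 bases, was the shortest hosted snoRNA with a level. Its effective length was 2.15, 1.08 and 1.01 bases in replicates 1, 2 and 3. From 6156, 1987 and 882 expected counts, the tables gave it 103004, 86669 and 62750 TPM, which ranked it 2 of 1507 snoRNA genes by mean TPM but 9 by mean count. In the kallisto tables it averaged 7108 TPM. Its host Snhg1 had 932, 1070 and 694 expected counts, so that Snord22 had 6.61, 1.86 and 1.27 counts for each host count. Snhg1-215 and Snhg1-203, the host isoforms with the most counts, hold Snord22 whole. Reads can be split between them and Snord22, so the ratio rests on how the authors' tool split them. The ratio was highest in replicate 1, the library with the shortest fragments and the most starting RNA; the part of either in the ratio was not tested.

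Snora73a and Snora73b, the U17 snoRNAs, which act in the processing of ribosomal RNA, differ in 7 of 205 bases, so reads can be split between them. Snora73a had 7314, 4433 and 1445 expected counts, and Snora73b 9473, 3852 and 1728. Their host Snhg3 had 19.4, 23.3 and 5.27, of which 19.4, 21.3 and 2.27 were in Snhg3-202, an isoform that overlaps Snora73a in part. The ratio of snoRNA to host counts was 864, 355 and 602, a mean of 607 ± 254 (SD, n = 3), the highest of the 10 hosts. For Gas5, Zfas1, Snhg5 and Snhg6 this ratio is 0 in advance, as all their snoRNAs have an effective length of 0. Rcc1, a chromatin-bound exchange factor for Ran, lies on the same strand and spans both snoRNAs. It had 3.89, 3.47 and 3.44 TPM, and the snoRNAs lie within both genes.

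The other measured snoRNAs were far lower. Snora9 in Snhg15 had 98.6, 31.9 and 5.74 expected counts, or 0.63, 0.29 and 0.044 for each host count. Snhg15-203 holds Snora9 whole, so reads can be split between snoRNA and host here too. In Snhg12, Snora44 had 49.8, 6.93 and 0.88 counts and Snora61 had 21.5, 13.8 and 7.83, while the entries for Snora16a were at 0. Snora24 in Snhg8 had 3.20, 2.60 and 0 counts. Gm23639 in Epb41l4aos had 41, 1 and 2. Those with counts were highest in replicate 1 and lowest in replicate 3, except that Gm23639 was lowest in replicate 2.

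For the short box C/D snoRNAs the kallisto tables give the only counts. Gm22357 had 453, 354 and 226 estimated counts and Snord47 had 183, 52.8 and 43.9, and both lie in Gas5. Summed over its 10 entries, Gas5 snoRNAs had 0.26, 0.18 and 0.15 counts for each host count, a mean of 0.20 ± 0.056. Gas5-218 and Gas5-222 hold Gm22357 whole and Gas5-202 holds Snord47, so this ratio rests on how shared reads were split. Snord99 in Snhg12 had 41.1, 63.1 and 49.1. Snord50a and Snord50b, which differ in 1 of 72 bases, had 16.6, 17.8 and 11.3, and 6.48, 8.90 and 9.19. Snord87 in Snhg6 had 16, 7 and 8, Gm23201 in Zfas1 had 43.8, 5.21 and 11.6, and Snord12, also in Zfas1, had 23.9, 8.22 and 4.08. Of the 7 Snhg1 snoRNAs shorter than Snord22, 6 had 0 counts in every library, and Gm25894 had 4.69 counts in replicate 3 only. A count of 0 allows up to 3 counts, and with fragments of this size it does not show that these snoRNAs were absent.

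**Figure D5:**
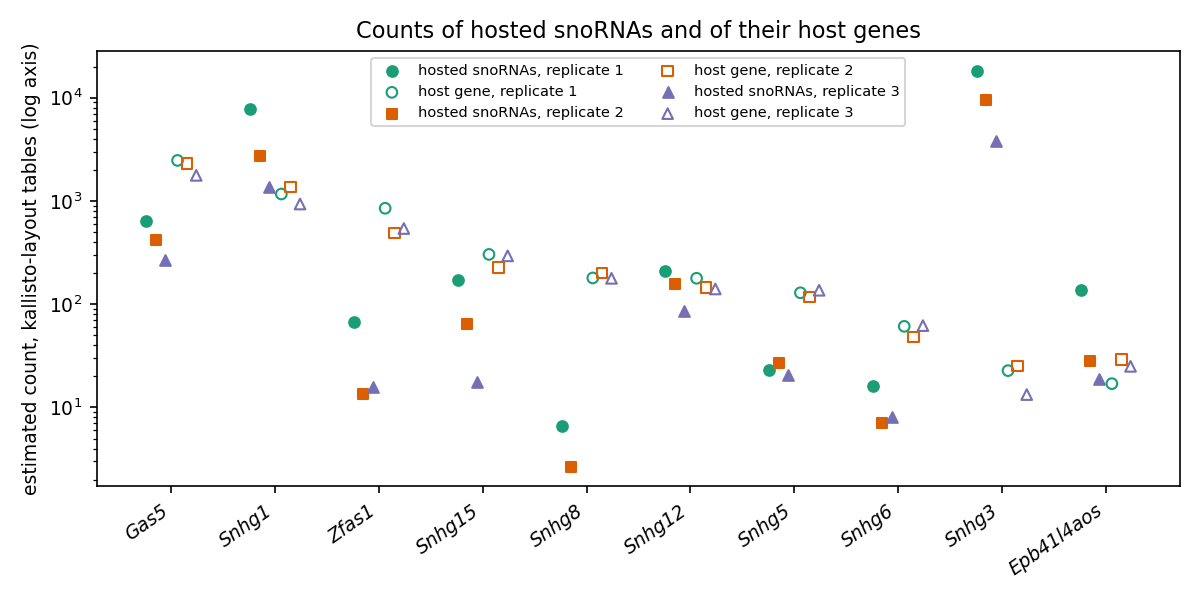
Estimated counts in the kallisto-layout tables (log axis) of the summed hosted snoRNAs (filled) and of the host gene (open) in each library; the snoRNA of Snhg8 was at 0 in replicate 3 and is not drawn there. Snhg3 and Snhg1 have more snoRNA than host counts in every library, while Gas5 and Zfas1 have fewer. For snoRNAs that lie whole in host isoforms, reads can be split between snoRNA and host.

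The starts of the hosts were examined in RefSeq promoter sequences (GRCm38.p6), which held 9 starts for 8 of the 10 genes. The windows of Gas5 (chr1:161035131-161035200, + strand), Snhg1 (chr19:8723452-8723521, + strand) and Snhg12 (chr4:132308643-132308712, + strand) are shown as examples of the starts that hold both features searched for. Capitals mark TATA and the longest run of C and T near the start, which do not overlap; the start is base 36 of each window.
Gas5 start: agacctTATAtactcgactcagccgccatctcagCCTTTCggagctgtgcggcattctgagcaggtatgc
Snhg1 start: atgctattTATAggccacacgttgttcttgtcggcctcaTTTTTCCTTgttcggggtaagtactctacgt
Snhg12 start: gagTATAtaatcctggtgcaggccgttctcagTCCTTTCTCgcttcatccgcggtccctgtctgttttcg

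TATA, searched on the gene's strand in the 40 bases before the start, was found at 5 of the 9 host starts: the downstream start of Gas5, Snhg1, Snhg5, Snhg8 and Snhg12. It was found in 7.63% of all 32851 RefSeq windows. A run of at least 6 bases, each C or T, that begins in or reaches into the 10 bases on either side of the start was found at the same 5 host starts and in 30.0% of all windows. Letters that match are a description, and no match says only that the letters are not in that window.

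Isoforms that start within 50 bases of the downstream Gas5 start (base 161035166) took 75.3 ± 2.32% of its TPM, against 0.34 ± 0.30% for the upstream start (base 161034601), which has no such run. The share at the RefSeq start was 55.8 ± 3.59% in Snhg1, 76.9 ± 5.63% in Snhg12, 72.6 ± 4.15% in Snhg5 and 84.2 ± 6.67% in Snhg8. It was 32.1 ± 3.69% in Snhg15 and 37.7 ± 3.55% in Zfas1. In Snhg3 it was 34.9 ± 41.7%, on few counts.

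Of the 10 hosts, 4 had a gene on the opposite strand that starts within 2000 bases of the outermost host start. Gas5 exceeded Zbtb37, a zinc-finger gene whose start lies 427 bases away and overlaps it by 428 bases, in 3 of 3 libraries. The values were 90.1, 107 and 134 TPM for Gas5, against 7.06, 5.47 and 14.6 TPM for Zbtb37, a mean log2 difference of 3.70 ± 0.54 (SD, n = 3). The other 3 hosts were below their neighbour in 3 of 3 libraries. Snhg1 had 24.4, 40.8 and 36.0 TPM, against 47.4, 99.5 and 81.5 TPM for Slc3a2, the heavy chain of an amino acid transporter that starts 106 bases away. The mean log2 difference was -1.14 ± 0.17, and both genes were lowest in replicate 1 and highest in replicate 2. In the kallisto tables Slc3a2 averaged 271 TPM.

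Zfas1 had 22.6, 15.2 and 23.0 TPM, against 27.7, 28.6 and 41.6 TPM for Znfx1, which starts 81 bases away, with a mean log2 difference of -0.68 ± 0.34. Znfx1 encodes a zinc-finger helicase with a role in antiviral defence. Snhg3 had 1.79, 3.92 and 2.59 TPM, against 5.07, 4.78 and 4.65 TPM for the lincRNA gene Gm17300, which lies wholly within it on the other strand, with a mean log2 difference of -0.85 ± 0.59. The use of strand in counting is not given, so reads in the overlaps with Zbtb37, Znfx1 and Gm17300 cannot be assigned to a strand here. Snhg6 overlaps the end of Mcmdc2 by 127 bases, and Mcmdc2 had 0.85 ± 0.061 TPM.

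Counts were then set against the amount of starting RNA, the numeric label that differed between libraries. With 3 libraries of different amounts, amount and replicate cannot be told apart. None of the 8 hosts that passed the filter on low counts passed an adjusted p of 0.05 (edgeR quasi-likelihood test with Benjamini-Hochberg adjustment over all genes tested), against 1.14% of the 13985 genes tested. At an unadjusted p under 0.05 the count was 1 of 8, against 6.96% of all genes, and DESeq2 called 0 of the 7 hosts for which it gave an adjusted p, against 0.762% of 11544 genes. Snhg3 and Epb41l4aos did not pass the filter. The median slope of the 8 hosts was 0.022 log2 units for each doubling of the amount, against 0.0031 over all genes tested.

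Over the 3 libraries, Zfas1 was the host with the steepest slope. It had 39.6, 18.9 and 23.1 normalised CPM at 1000, 250 and 500 ng. Its slope was 0.54 ± 0.17 (SE) with an adjusted p of 0.142 in edgeR, and it was 0.53 with an adjusted p of 0.786 in DESeq2. Without replicate 1 its slope was 0.27, and those of Snhg6, at 0.76, Snhg1, at -0.65, and Gas5, at -0.38, were steeper. Over the 3 libraries, slopes of the other 7 lay between -0.22 for Snhg1 and 0.19 for Snhg6, each with an adjusted p of at least 0.982 in edgeR. Among the hosted snoRNAs, Snord22 had 374, 142 and 62.6 normalised CPM in replicates 1, 2 and 3 and a slope of 0.70 ± 0.21 (SE), with an adjusted p of 0.123 in edgeR. Replicate 3, with 500 ng, was lower than replicate 2, with 250 ng. Snora73b had a slope of 0.53 ± 0.21 (SE), with an adjusted p of 0.45 in edgeR. Fitted to the kallisto counts instead, 2 of 11 hosted snoRNAs tested passed the threshold in edgeR, against 1.19% of the 22432 genes tested. These were Snord47 of Gas5, with a slope of 0.90 and an adjusted p of 0.0309, and Gm23639 of Epb41l4aos, with a slope of 1.20 and an adjusted p of 0.00986. In both, replicate 1 held the most counts, and without it the slope was -0.38 in Snord47 and -0.65 in Gm23639, on 2 libraries with no test.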

How the data were processed

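Chromatin-fraction, ribosome-depleted RNA of stimulated macrophages was sequenced in 3 libraries. Per the file headers the authors quantified reads on mm10 with annotation M21. The authors deposited expected counts and TPM for genes and transcripts, and a second set of deposited transcript tables in the column layout of kallisto holds estimated counts and TPM. The credibility-interval bounds deposited as a signal in TPM were not used for tests. The aligner, quantifiers and strand use were not given in the sources used here. Because TPM is scaled over all entries, small RNAs of very short effective length lower the TPM of all other genes. Totals were 16317439, 16245280 and 12439931 expected counts; spike-in and numeric entries, 1.08%, 0.299% and 0.332% of them, stayed out of the tests.

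The 10 hosts, gene lists and tests were chosen with earlier results of these data known. Symbols, isoforms, snoRNAs and 1-based coordinates came from GENCODE M21 (GRCm38). Named were all hosts, their annotated snoRNAs and divergent neighbours, the highest and lowest gene of each list (the lowest coding host is not reported here), and the 3 noncoding genes nearest in level to the highest and lowest host. Means carry SDs over 3 libraries and logs a pseudocount of 0.1. The trend was fitted in edgeR 4.0.16 (R 4.3.3) on rounded expected counts with TMM factors, filterByExpr with a minimum count of 10 and 1 residual degree of freedom, and in DESeq2 1.42.0 as an alternative. The edgeR script was tested on simulated data whose slopes were steeper than any fitted for the hosts. Whether it would find slopes of the hosts' size was not tested. Other steps used Python 3.11.15 and pandas 2.3.3. Alternatives were the kallisto tables, posterior mean TPM, rescaled TPM, other pseudocounts and thresholds, other normalizations and filters, and leaving out each replicate.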

Additional observations from a re-analysis of the deposited data

How the results depend on the processing

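The median level of the hosts, 3.46 on the log2(TPM + 0.1) scale, was 5.23 with TPM rescaled over protein-coding and long noncoding genes, and it ranged from 3.16 to 3.67 when 1 replicate was left out. The share of host TPM in isoforms with a snoRNA in an exon, 68.7%, was 63.8% in the kallisto tables, 85.2% by expected counts, 70.5% when any base of a snoRNA counted and, chosen after seeing the data, 61.8% without Gas5; leaving out 1 replicate gave 68.3% to 69.3%. Single levels moved by more than 1 SD in 12 of 60 settings: all 10 under the rescaled TPM, Snhg15 in the kallisto tables (27.7 TPM) and Snhg3 as posterior mean (3.85 TPM). Rescaling divides all genes of a library by the TPM share of long genes, which was 22.1%, 30.1% and 33.2% in replicates 1, 2 and 3. The rise of the 10 levels and of the median under it is therefore a change of unit. The count of hosts at or above 1 TPM in every library used was 9 or 10 over the settings with that threshold. It was 9 at a threshold of 0.5 TPM and 8 at 2 TPM. The count of hosts passing the trend test was 0 in each fit.
Slopes near 0 changed sign: in the kallisto tables Gas5 had 0.0086 and Snhg5 had 0.029, each against a small negative slope. Leaving out 1 replicate, slopes ranged from -0.38 to 0.29 in Gas5, -0.65 to 0.20 in Snhg1 and -0.062 to 0.0076 in Snhg5. The range was -0.39 to 0.76 in Snhg6 and -0.11 to 0.22 in Snhg12. With no change of sign, slopes ranged from 0.27 to 0.78 in Zfas1, -0.25 to -0.18 in Snhg8 and 0.039 to 0.21 in Snhg15. The cause was not tested.
No paired analysis was possible because the study has 1 group.
Precision was limited by 3 libraries, by counts under 30 for Snhg3 and Epb41l4aos, and by fragments longer than most snoRNAs. Snhg6 was also low, with 39, 25 and 44 expected counts in replicates 1, 2 and 3.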

Other observations

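Among the other noncoding snoRNA hosts, Dancr, which hosts a snoRNA and is known for a role in keeping progenitor cells undifferentiated, had 0.59, 0.45 and 0.69 TPM in the gene tables and averaged 12.4 TPM in the kallisto tables. Snhg11 had 0.44 ± 0.097 TPM (SD, n = 3) and averaged 8.72 TPM in the kallisto tables. Snhg9 was listed at 0 in every gene table and averaged 3.39 TPM in the kallisto tables. The 10 hosts described above had a kallisto mean between 0.86 and 1.71 times their gene-table mean, lowest for Gas5 and highest for Epb41l4aos.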
